A study of Mus musculus with 7 samples.

Results

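The genes described here are 7 genes of the sodium pump and the calcium pumps, chosen by their symbols among the 24062 gene symbols of the deposited count files. They are Atp1b1, Atp1b2 and Atp1b3, which encode the beta subunits of the Na+/K+-ATPase, Atp2a2, which encodes the calcium pump SERCA2 of the endoplasmic reticulum, and Atp2b1, Atp2b2 and Atp2b3, which encode the plasma membrane calcium pumps PMCA1, PMCA2 and PMCA3. All 7 had enough counts to be tested. The RNA came from neurons of the medial preoptic area (MPA), a hypothalamic region involved in the control of body temperature, that were recorded in brain slices while the slice was warmed by 5 °C. Every sample held the aspirated contents of 2 ZsGreen-positive neurons from adult Esr1-ZsGreen mice, in which the fluorescent protein ZsGreen reports Esr1, the gene of estrogen receptor alpha (ERα). The 4 temperature-responsive samples were neurons labelled as responding to the warming and the 3 non-responsive samples were neurons labelled as not responding. Both groups carried the same reporter and went through the same warming, and there was no unwarmed group. The comparison asks how pump expression differed between neurons that did and did not respond to warming.

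The Na+/K+-ATPase uses ATP to move sodium out of a cell and potassium into it, and so maintains the gradients on which action potentials and many transporters depend. Its alpha subunit binds and hydrolyses ATP, and its beta subunit brings the alpha subunit to the membrane and shapes its affinity for ions. SERCA2 moves calcium from the cytosol into the endoplasmic reticulum, whereas the plasma membrane calcium pumps move it out of the cell, so that both kinds end the rise in calcium that follows firing.

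The catalytic genes and the beta subunit genes differ in sequence, and the stretch that sets them apart is shown because it carries the amino acid on which these pumps work. P-type ATPases pass through a state in which an aspartate of the pump holds the phosphate of ATP, and the sequence around this aspartate is a signature of the family. A pattern that allows every codon for this signature was searched in the GENCODE M21 protein-coding transcripts, read along the sense strand of each transcript. It was found in 24 of 21877 coding genes, or 0.11%, among them the 4 calcium pump genes and none of the 3 beta subunit genes. In the 27 bases printed here for 3 of them, 5′ to 3′, the capitals mark the codon of the aspartate.
Atp2a2: tgctcaGATaagacaggcacacttacc
Atp2b1: tgttcaGATaaaacaggaaccctgacg
Atp2b2: tgctcaGACaagacaggaacgctgacc
These are bases 1585 to 1611 of the Atp2a2 transcript, 1860 to 1886 of Atp2b1 and 1928 to 1954 of Atp2b2. The codon was GAT in Atp2a2 and Atp2b1 and GAC in Atp2b2. Of the 27 bases, 21 were identical between Atp2a2 and Atp2b1, 22 between Atp2b1 and Atp2b2 and 23 between Atp2a2 and Atp2b2. Even so, the transcripts of the 7 genes shared few longer stretches of sequence. Among all stretches of 50 bases in their transcripts, 7 occurred in both Atp2b2 and Atp2b3, which was 0.055% of those of Atp2b2 and 0.145% of those of Atp2b3, and no other pair of the 7 genes shared any.

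Totals ranged from 1914497 to 2814360 counts in temperature-responsive and from 3309361 to 5125280 counts in non-responsive samples, without overlap. The number of genes detected also did not overlap, with 19852 to 21177 in temperature-responsive and 17818 to 19820 in non-responsive samples, so that depth, gene detection and response to temperature cannot be told apart by group alone. A floor of 3 counts corresponded to 0.564 to 1.62 CPM, which are counts divided by the TMM-scaled library total and multiplied by a fixed factor. This floor covers counting error alone, as reads without molecular identifiers are not independent molecules. The methods state that only female mice were recorded, but the Y-linked gene Ddx3y had 684 to 1150 counts in every sample and Xist, which is expressed from the inactive X chromosome, had 2 to 14. Esr1 had 10 to 27 counts in a sample and did not pass the test between groups (log2 difference 0.55, adjusted p = 0.286). The labels do not say which samples came from separate mice, so p-values measure only the spread between these samples, which may be technical.

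Markers of other cell types were present in every sample and are given here because the same genes are expressed outside neurons. Summed over 5 markers each, oligodendrocyte genes reached 2844 to 3851 CPM in temperature-responsive and 2443 to 3070 CPM in non-responsive samples, with 2 of 5 higher and 1 lower by the test described below. By that test 15.1% of all genes were higher and 14.9% lower. Astrocyte genes reached 1083 to 1261 CPM and 876 to 1068 CPM, without overlap, with 2 of 5 higher and 1 lower. Endothelial genes reached 76.6 to 276 CPM and 14.6 to 53.6 CPM, without overlap, with 3 of 5 higher. Microglia genes reached 271 to 306 CPM and 304 to 324 CPM, with 1 of 5 higher and 1 lower, and choroid plexus genes 303 to 397 CPM and 265 to 345 CPM, with 1 of 5 higher. The 5 neuron genes reached 2447 to 2810 CPM and 2247 to 2588 CPM, with 1 higher and 2 lower. The 5 GABAergic and glutamatergic genes reached 1433 to 1792 CPM and 1307 to 1442 CPM, with 1 higher. The 5 cerebellar genes reached 32.5 to 51.9 CPM and 44.3 to 49.2 CPM, with 1 of the 3 that were tested higher and 1 lower, and their Purkinje cell marker Pcp2 and granule cell marker Gabra6 had at most 5 and 6 counts in a sample. The part of these cells in the differences below was not tested, and fewer cells of a type and less RNA per cell cannot be told apart in such samples.

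Atp1b1 and Atp2a2 were higher and Atp2b2 was lower in temperature-responsive neurons, by 1.31-fold, 1.25-fold and 0.83-fold, and the other 4 genes did not pass the test. Counts were compared with edgeR's quasi-likelihood test over 14407 genes, and p-values were adjusted by the Benjamini-Hochberg method over all of them with a threshold of 0.05. By this test 3 of the 7 genes differed, 2 higher and 1 lower, where 30.0% of all genes tested differed, 15.1% higher and 14.9% lower. The same 3 genes were those whose groups did not overlap in CPM, against 35.4% of all genes tested. The 7 genes lay between the 88.4 and the 99.8 percentile of mean expression. Among the 1668 genes expressed at least as highly as the lowest of them, 48.5% passed the test and 56.5% did not overlap, so 3 of 7 was no more than in genes of similar expression. Their median log2 difference was 0.015, against 0.007 for all genes.

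**Figure D1:**
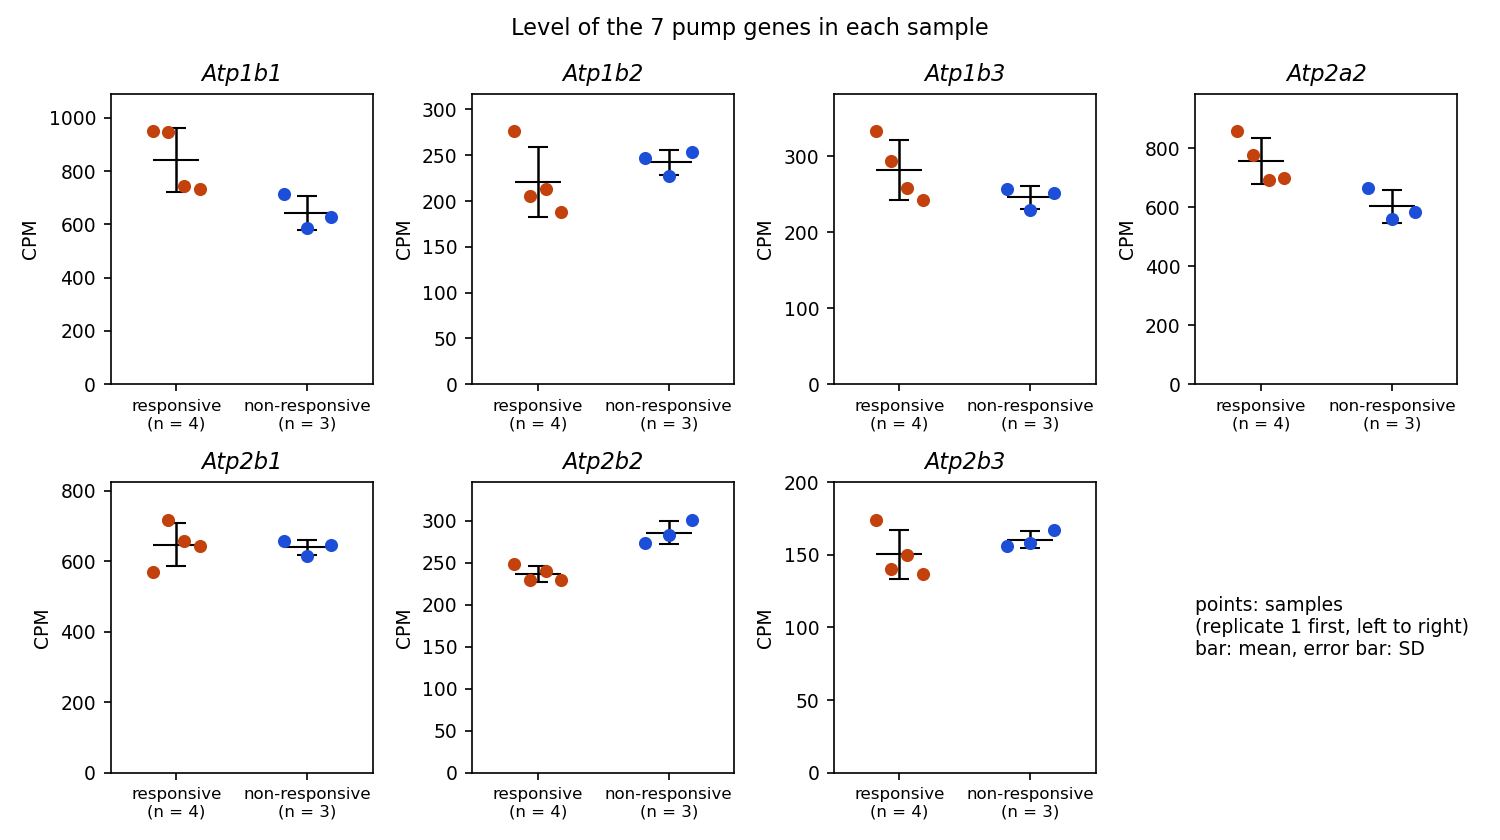
CPM of each pump gene (y axis, from 0) in the 4 temperature-responsive (orange) and 3 non-responsive (blue) samples, with 1 point per sample and the mean and SD of each group as bars. The groups were apart for Atp1b1, Atp2a2 and Atp2b2 and overlapped for the other 4 genes, with Atp2b1 at 647 and 640 CPM on average.

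Among the beta subunits, Atp1b1 encodes β1, the form found most widely in neurons. It lies on the minus strand at chr1:164437109-164458355 (GRCm38/mm10, ENSMUSG00000026576.12). In temperature-responsive samples it reached 949, 945, 745 and 733 CPM, and in non-responsive samples 714, 587 and 627 CPM. All temperature-responsive samples were above all non-responsive samples, but replicates 3 and 4 lay close to the highest non-responsive sample, whereas replicates 1 and 2 stood well above it. The mean was 843 ± 120 CPM (SD, n = 4) against 643 ± 65.0 CPM (SD, n = 3), a log2 difference of 0.39 ± 0.114 (SE) or 1.31-fold, with an adjusted p of 0.0118. Its counts ran from 1755 to 3135 per sample. The call was lost in a fit that adjusted for gene detection per sample (adjusted p = 0.429) and when temperature-responsive replicate 2, non-responsive replicate 2 or non-responsive replicate 3 was left out (adjusted p = 0.0544, 0.087 and 0.0643), with log2 differences from 0.33 to 0.37 in these fits.

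Of the exon bases of Atp1b1, 18.66% are shared with Nme7, which encodes a nucleoside diphosphate kinase family protein and runs on the opposite strand. It is not stated that the counting used strand, so reads from the shared bases cannot be assigned to either gene with certainty. Nme7 had 19 to 112 counts in a sample and averaged 15.6 ± 4.59 CPM in temperature-responsive and 20.8 ± 1.39 CPM in non-responsive samples, and did not pass the test (log2 difference -0.40, adjusted p = 0.183). The part of the shared reads in the difference of Atp1b1 was not tested.

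The window upstream of Atp1b1 is shown because this gene had the largest difference of the 7. The 250 bases before its RefSeq start (GRCm38.p6, chr1:164458356-164458605, minus strand) are printed 5′ to 3′ with matches to short promoter motifs in capitals.
Atp1b1 upstream: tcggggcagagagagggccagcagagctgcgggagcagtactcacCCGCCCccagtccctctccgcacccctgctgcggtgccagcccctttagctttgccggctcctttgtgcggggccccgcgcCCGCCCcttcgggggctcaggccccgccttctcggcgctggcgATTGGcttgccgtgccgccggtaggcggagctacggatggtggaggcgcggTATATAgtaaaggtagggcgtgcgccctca
On either strand it held 2 copies of the GC box GGGCGG, 1 CCAAT box (CCAAT) and 1 TATATA, but no TATAAA and no cAMP response element (TGACGTCA). Of 32851 RefSeq windows of the same length, 32.7% held GGGCGG, 33.8% CCAAT, 5.25% TATATA, 12.4% TATAAA and 1.55% TGACGTCA. These matches describe letters in the window, whose GC content was 70.4%, and not bound factors. RefSeq windows were found for 4 of the 7 genes.

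Atp1b2 encodes β2, a beta subunit also known as an adhesion molecule on glia, which is prominent in astrocytes (ENSMUSG00000041329.13, chr11:69599736-69605942, minus strand). It reached 276, 206, 213 and 188 CPM in temperature-responsive and 247, 227 and 253 CPM in non-responsive samples. The groups overlapped because temperature-responsive replicate 1 was the highest of all 7 samples, while the other 3 were the lowest. The means were 221 ± 38.5 CPM (n = 4) and 242 ± 13.8 CPM (n = 3), and the log2 difference of -0.14 ± 0.11 did not pass the test (adjusted p = 0.366). Without temperature-responsive replicate 1 it was -0.27 and passed (adjusted p = 0.0382).

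Atp1b3 encodes β3, which is expressed in many tissues (ENSMUSG00000032412.8, chr9:96332655-96364442, minus strand). It reached 333, 294, 259 and 243 CPM in temperature-responsive and 257, 229 and 252 CPM in non-responsive samples. The 3 highest samples were temperature-responsive, but replicate 4 lay below a pair of non-responsive samples. The log2 difference was 0.20 ± 0.106, with means of 282 ± 39.9 and 246 ± 15.1 CPM, and did not pass the test (adjusted p = 0.161).

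The makeup of the beta subunits was also described by the share of each gene within a sample, which does not depend on scaling between samples. Of the counts per kilobase of merged exons over the 3 genes, Atp1b1 made up 59.8% to 63.8% in temperature-responsive and 54.9% to 57.9% in non-responsive samples. Atp1b2 made up 10.5% to 13.1% and 15.1% to 16.7%, and also did not overlap. Atp1b3 made up 25.7% to 27.1% and 26.9% to 28.4%, which overlapped. Shares are parts of the same total, so a higher share of Atp1b1 lowers those of the others. In CPM Atp1b2 overlapped between groups and did not pass the edgeR test (adjusted p = 0.366). The mean share of Atp1b1 was 61.4% ± 1.84 against 56.2% ± 1.56, and that of Atp1b2 was 12.1% ± 1.2 against 16.0% ± 0.8 (SD, n = 4 and n = 3).

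**Figure D2:**
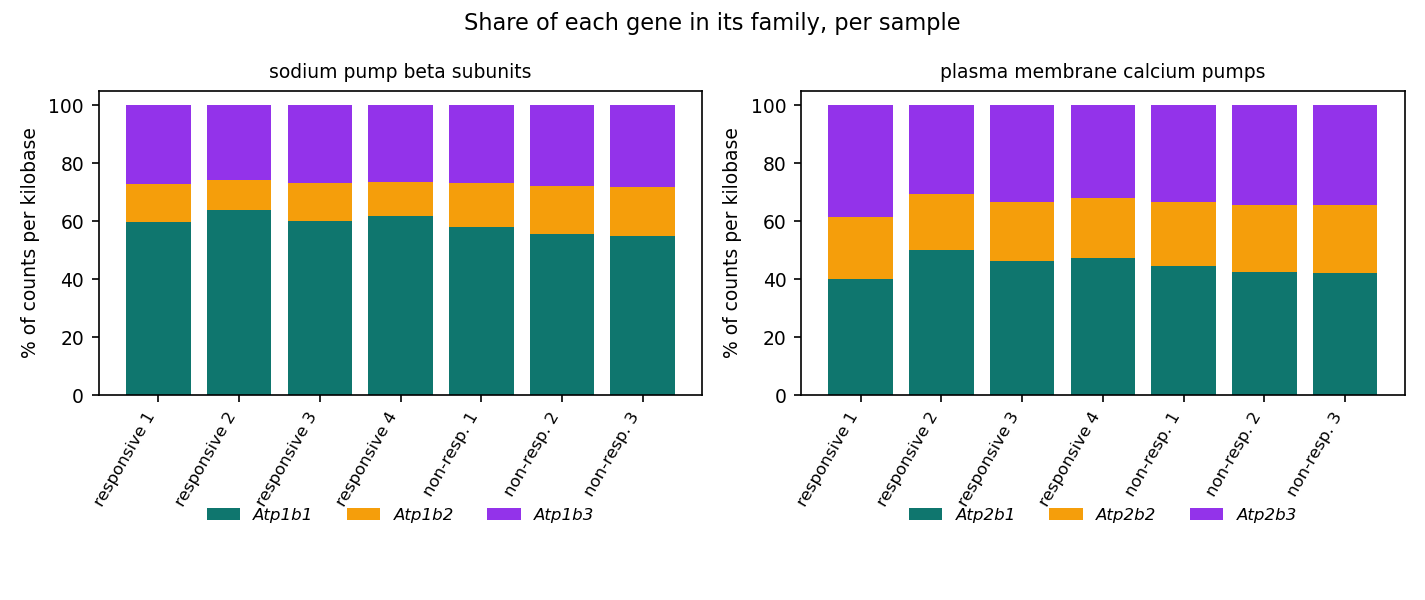
Share of each gene among the genes of its family described here (y axis, % of counts per kilobase of merged exons) in each of the 7 samples, for the sodium pump beta subunits and the plasma membrane calcium pumps. Atp2b4 was not included. Atp1b1 took 59.8% to 63.8% in temperature-responsive against 54.9% to 57.9% in non-responsive samples, and Atp2b2 took 19.3% to 21.2% against 22.3% to 23.6%.

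Atp2a2 encodes SERCA2, the form of the reticulum pump that neurons mainly use (ENSMUSG00000029467.15, chr5:122453513-122502225, minus strand). It reached 857, 776, 693 and 699 CPM in temperature-responsive and 664, 560 and 584 CPM in non-responsive samples. As for Atp1b1, the groups did not overlap, temperature-responsive replicates 1 and 2 were highest, and non-responsive replicate 1 was the nearest of its group to them. The mean was 756 ± 77.4 CPM (n = 4) against 603 ± 54.4 CPM (n = 3), a log2 difference of 0.33 ± 0.105 or 1.25-fold, with an adjusted p of 0.0208. The call was lost with an offset for GC content (0.23, adjusted p = 0.104), when all genes with at least 1 count were kept (0.24, adjusted p = 0.063) and with adjustment for gene detection (0.30, adjusted p = 0.448). It was also lost when temperature-responsive replicate 1 or 2 or non-responsive replicate 2 or 3 was left out (adjusted p = 0.0571, 0.0565, 0.122 and 0.105). The exons of Atp2a2 share 1.36% of their bases with Gm43361 on the opposite strand.

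Atp1b1 and Atp2a2 varied alike across the samples. Across the 7 samples the log2 CPM of these genes correlated with r = 0.97, and that of Atp1b1 and Atp1b3 with r = 0.91. Each sample gave 1 point to all genes, so these values share library, depth and group, and they are descriptions only. The log2 ratio of Atp1b1 to Atp2a2 counts within a sample was 0.15, 0.28, 0.11 and 0.069 in temperature-responsive and 0.10, 0.066 and 0.10 in non-responsive samples, which overlapped.

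Of the plasma membrane calcium pumps, Atp2b1 encodes PMCA1, the most widely expressed form (ENSMUSG00000019943.10, chr10:98914406-99026143, plus strand). It reached 570, 717, 657 and 642 CPM in temperature-responsive and 656, 616 and 646 CPM in non-responsive samples. Both the lowest and the highest sample were temperature-responsive, and the non-responsive samples lay between them. The log2 difference was 0.015 ± 0.0997, with means of 647 ± 60.1 and 640 ± 20.8 CPM (adjusted p = 0.926). With a GC content of 42.6% it was the most AT-rich of the 7 genes, and the offset for GC content moved its log2 difference to -0.22, which did not pass the test (adjusted p = 0.0885).

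Atp2b2 encodes PMCA2, a fast form with high activity at rest that is restricted largely to the nervous system and a few other tissues (ENSMUSG00000030302.16, chr6:113743831-114042613, minus strand). It reached 249, 229, 240 and 230 CPM in temperature-responsive and 274, 283 and 301 CPM in non-responsive samples. All non-responsive samples were above all temperature-responsive samples, and the spread within either group was small. The mean was 237 ± 9.58 CPM (n = 4) against 286 ± 13.5 CPM (n = 3), a log2 difference of -0.27 ± 0.0911 or 0.83-fold, with an adjusted p of 0.0273. The call was lost with upper quartile normalization (-0.20, adjusted p = 0.0926), after thinning all samples to the same total (-0.24, adjusted p = 0.07) and with adjustment for gene detection (-0.13, adjusted p = 0.75). It passed in only 2 of the 7 fits that left out a sample, those without temperature-responsive replicate 1 and without non-responsive replicate 1. In the other 5 the log2 difference lay between -0.28 and -0.23 and the adjusted p was 0.0815, 0.0661 and 0.0731 without temperature-responsive replicates 2, 3 and 4, and 0.0755 and 0.13 without non-responsive replicates 2 and 3.

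Atp2b3 encodes PMCA3, also a form with a largely neuronal distribution, and is X-linked (ENSMUSG00000031376.15, chrX:73503086-73571005, plus strand). It reached 174, 140, 150 and 137 CPM in temperature-responsive and 156, 158 and 167 CPM in non-responsive samples. As for Atp1b2, temperature-responsive replicate 1 was the highest of all samples and the other 3 were the lowest. The log2 difference was -0.096 ± 0.0997, with means of 150 ± 16.8 and 160 ± 5.61 CPM, and did not pass the test (adjusted p = 0.493). Across the 7 samples its log2 CPM correlated with that of Atp1b2 with r = 0.96, to which replicate 1 contributed as the highest value of both.

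Among these 3 plasma membrane pump genes, Atp2b2 took 19.3% to 21.2% of the counts per kilobase in temperature-responsive and 22.3% to 23.6% in non-responsive samples. The remaining plasma membrane pump gene, Atp2b4, was not included, although it averaged 186 CPM in temperature-responsive and 224 CPM in non-responsive samples. The shares of Atp2b1 (40.1% to 49.9% and 42.1% to 44.4%) and Atp2b3 (30.8% to 38.7% and 33.3% to 34.3%) overlapped between groups. The log2 ratio of Atp2b2 to Atp2b3 counts was 0.66 ± 0.10 in temperature-responsive and 0.83 ± 0.0192 in non-responsive samples, without overlap.

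The genes that were higher and the gene that was lower were also described by their ratio of counts within each sample, which no scaling between samples can change. The log2 ratio of Atp1b1 to Atp2b2 was 1.93, 2.04, 1.63 and 1.67 in temperature-responsive and 1.38, 1.05 and 1.06 in non-responsive samples, a difference of 0.65 between the means. The log2 ratio of Atp2a2 to Atp2b2 was 1.78, 1.76, 1.53 and 1.60 in temperature-responsive and 1.28, 0.99 and 0.96 in non-responsive samples, a difference of 0.59. Neither ratio overlapped between groups. This followed from the CPM of these genes, whose groups were already apart in opposite directions, and adds no separate evidence. Of all 21 pairs of the 7 genes, 13 had ratios that did not overlap between groups. The log2 ratio of Atp1b1 to Atp1b2 was 1.94 ± 0.19 and 1.40 ± 0.113, again without overlap. These ratios were chosen after the values of the genes were seen and were not tested.

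**Figure D3:**
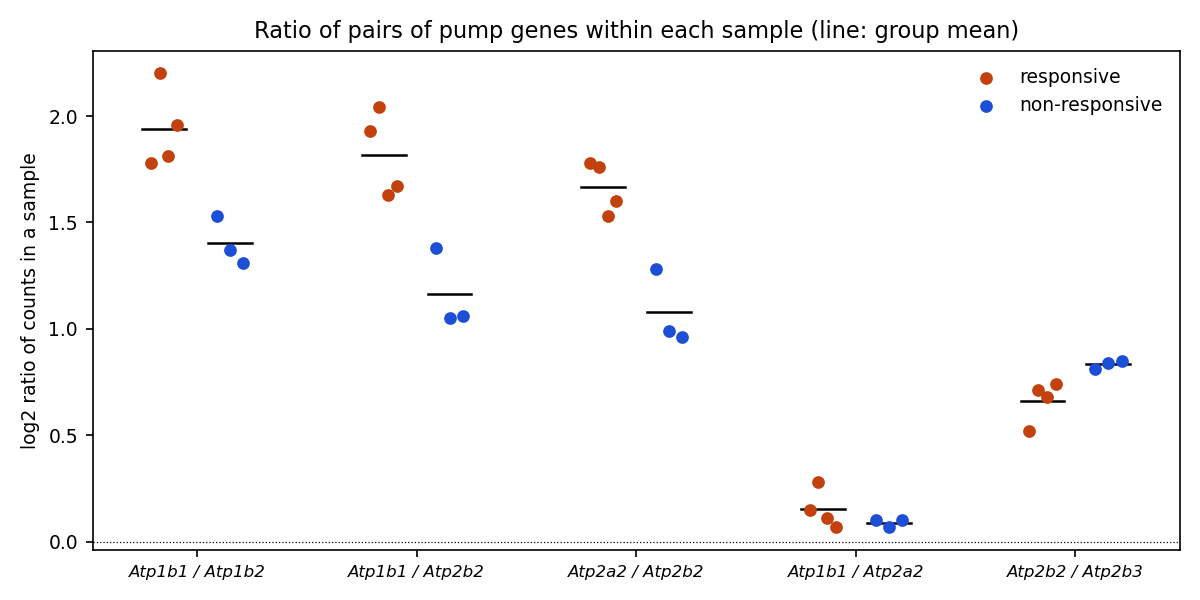
log2 ratio of the deposited counts of a pair of pump genes within each sample (y axis), with 1 point per sample and a line at the group mean. Temperature-responsive samples (orange) lay above non-responsive samples (blue) for the first 3 pairs, overlapped them for Atp1b1 to Atp2a2, and lay below them for Atp2b2 to Atp2b3 (0.66 against 0.83).

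Levels can be compared between genes only per length, and for this the CPM were divided by the length of the merged exons in kilobases. Over the 7 samples Atp1b1 had the highest level, at 246 ± 46.0 CPM per kilobase (SD, n = 7), above every other gene in every sample. Atp2a2 (114 ± 17.0) and Atp1b3 (112 ± 14.8) followed and were not apart, with Atp2a2 higher in 5 of 7 samples. Atp1b2 (56.3 ± 7.49) was higher than Atp2b1 (42.3 ± 2.91) in 7 of 7 samples although their ranges overlapped. Atp2b3 (32.1 ± 2.79) and Atp2b2 (20.5 ± 2.22) were lowest, with ranges that did not overlap. The order depended on the length used, since the merged exons of Atp2b1 span 15218 bases and its longest transcript 7130. With the longest transcript Atp1b3 (134) came before Atp2a2 (122), and Atp2b1 (90.3) before Atp1b2 (61.3).

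The partners of the beta subunits were described from a list of 15 genes, of which 12 were tested and 6 differed, 2 higher and 4 lower, with a median log2 difference of -0.12. Of all genes tested, 30.0% differed. Fxyd6 and Fxyd7 encode small membrane proteins that modulate the pump. Fxyd6 was lower in temperature-responsive samples, at 122 ± 20.7 CPM against 174 ± 11.5 CPM (log2 difference -0.50 ± 0.113, adjusted p = 0.00203), without overlap. Fxyd7 was also lower, at 76.2 ± 13.8 CPM against 106 ± 2.55 CPM (-0.46 ± 0.122, adjusted p = 0.00679). Nkain2, which encodes a protein that binds β1, was higher, at 102 ± 9.93 CPM against 74.7 ± 10.1 CPM (0.46 ± 0.12, adjusted p = 0.00625). Atp1a4, Atp1b4 and Fxyd3 had too few counts to be tested.

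Among 13 other calcium pumps and exchangers, all of them tested, 3 were higher and 2 lower, with a median log2 difference of 0.061. For all genes tested the share that differed was 30.0%. Atp2c1, the calcium and manganese pump of the Golgi apparatus, was higher, at 319 ± 21.4 CPM against 227 ± 12.5 CPM (log2 difference 0.49 ± 0.095, adjusted p = 0.000736), without overlap. The fourth plasma membrane pump, Atp2b4, was lower as Atp2b2 was, at 186 ± 10.3 CPM against 224 ± 15.6 CPM (-0.26 ± 0.0936, adjusted p = 0.0353). Of the sodium-calcium exchangers of the plasma membrane, Slc8a1 (log2 difference 0.061, adjusted p = 0.688), Slc8a2 (-0.15, adjusted p = 0.694) and Slc8a3 (-0.19, adjusted p = 0.457) did not pass the test. Atp2a3, which encodes SERCA3, had 2 to 26 counts in a sample and an estimate of 1.42 that did not pass (adjusted p = 0.0598).

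The list of regulators held 18 partners and regulators of the pumps and calcium store genes, of which 17 were tested, 5 were higher and 3 were lower, with a median log2 difference of 0.15. Again, 30.0% of all genes tested differed. Nptn encodes neuroplastin, which forms complexes with the plasma membrane calcium pumps, and was higher in temperature-responsive samples, at 604 ± 95.5 CPM against 432 ± 43.2 CPM (log2 difference 0.48 ± 0.115, adjusted p = 0.0033). Bsg, which encodes basigin, a relative of neuroplastin with the same association, did not pass (0.12, adjusted p = 0.369). Calm2, which encodes calmodulin, the calcium sensor that activates the plasma membrane pumps, was higher, at 405 ± 75.4 CPM against 235 ± 55.4 CPM (log2 difference 0.79 ± 0.149, adjusted p = 0.00113). Its counts were 921 to 965 in temperature-responsive and 998 to 1061 in non-responsive samples, although the totals of the latter were larger. The part of depth in this difference was not tested. Calm3, which also encodes calmodulin, did not pass (0.22, adjusted p = 0.11). Itpr3, a calcium release channel of the reticulum, was higher at few counts (3 to 28 in a sample, log2 difference 2.06 ± 0.473, adjusted p = 0.00238), and Stim1, the sensor of calcium in the reticulum, was lower (-0.56 ± 0.156, adjusted p = 0.00927). Sln had too few counts to be tested.

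Over the 3 lists, 19 of 42 tested genes differed, 10 higher and 9 lower, against 30.0% of all genes, and 16 did not overlap between groups, against 35.4% of all genes. Among the 1668 genes expressed at least as highly as the lowest pump gene, 48.5% differed and 56.5% did not overlap. The listed genes ran from below to above that level, so neither share is a matched comparison. The median log2 difference of the listed genes was 0.086. With adjustment for gene detection none of the 42 passed in edgeR, and 7 had an unadjusted p under 0.05. The count fell to 12 without temperature-responsive replicate 2, to 12 without non-responsive replicate 2 and to 10 without non-responsive replicate 3.

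**Figure D4:**
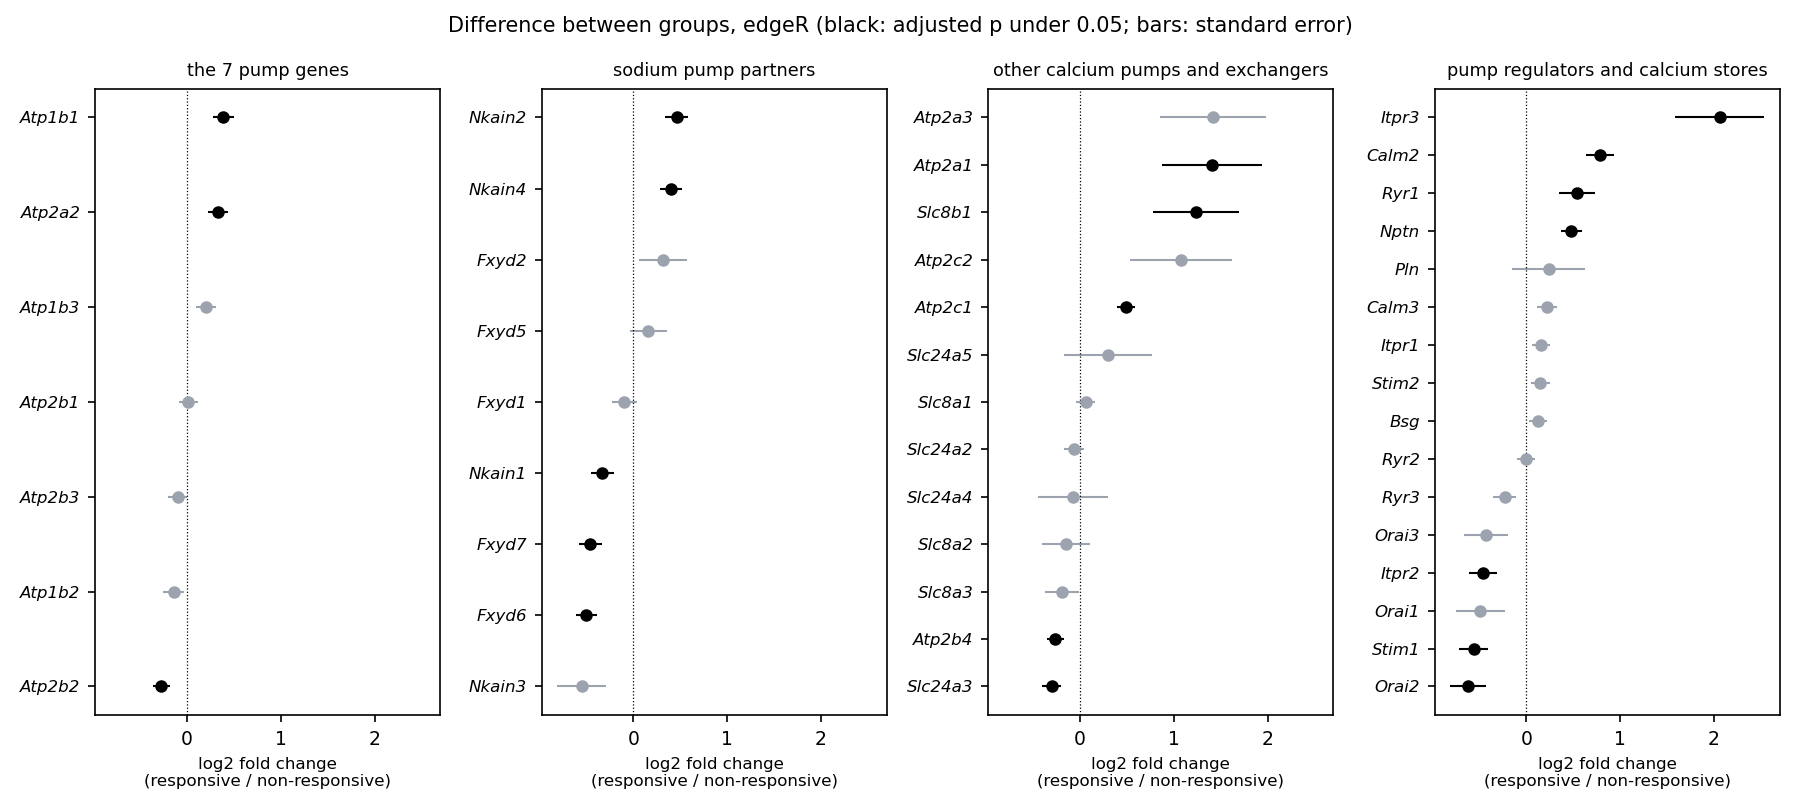
log2 difference between groups (x axis, temperature-responsive over non-responsive) with its standard error for the 7 pump genes and for genes of 3 lists of partners, in black where the adjusted p of edgeR was under 0.05 and in grey otherwise. The pump genes lay between -0.27 and 0.39, and genes with few counts such as Itpr3 (2.06) had the largest estimates and errors.

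To see which genes varied most like each pump gene, log2 CPM was correlated over the 7 samples among the 9235 tested genes with a mean of at least 20 CPM. The 3 genes most like Atp1b1 included Serinc1 (r = 0.999) and Atp5a1 (r = 0.997), which encodes a subunit of the mitochondrial ATP synthase. Atp2a2 was most like Chd3os (0.994), Atp6v0b (0.993), a subunit gene of the vacuolar proton pump, and Fubp3 (0.991), and Atp2b2 was most like Cacul1 (0.996), Pccb (0.993) and Coro1b (0.991). Atp1b3 was most like Pkm (0.987), the gene of a pyruvate kinase, Golga7 (0.986) and Etnk1 (0.985). Atp1b2 and Atp2b3 had Tmem63a among their 3 most alike genes (0.982 and 0.977), with Cdc37l1 (0.976) and Tm7sf3 (0.975) for Atp1b2 and Gpr62 (0.979) and Endod1 (0.975) for Atp2b3. Atp2b1 was most like Col5a1 (0.975), Pkig (0.967) and Mkl2 (0.959). With 7 points from the same libraries and 9235 genes compared, such values are descriptions of these samples. By rank, 77 genes had exactly the same sample order as Atp1b1, 48 the same as Atp2a2 and 61 the same as Atp2b2, so no gene stands alone.

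The order of samples for the oligodendrocyte markers was close to that of Atp1b1. Their summed level was 3851, 3725, 2953 and 2844 CPM in temperature-responsive and 3070, 2443 and 2687 CPM in non-responsive samples, so that temperature-responsive replicates 1 and 2 were highest in both and non-responsive replicate 2 was lowest in both. The sums of the neuron list and of the GABAergic and glutamatergic list took the same positions, although not all of their members did. Of the 5 neuron genes, Snap25 and Stmn2 took all of these positions. Tubb3 and Syt1 did not, and Rbfox3 was lowest in temperature-responsive replicates 1 and 2 (159 CPM in both). The sum of the neuron genes was highest in those replicates (2743 and 2810 CPM) and lowest in non-responsive replicate 2 (2247 CPM). So was the sum of the GABAergic and glutamatergic genes (1792 and 1562 against 1307 CPM), but its members differed. Gad1 (690 and 540 CPM) and Gad2 (659 and 458 CPM) were highest in temperature-responsive replicates 1 and 2. Slc17a6 and Slc17a7 were lowest in temperature-responsive replicate 1 (202 and 192 CPM), and Slc32a1 in replicate 2 (25.8 CPM). The sums of the other cell types given above did not share all positions of the oligodendrocyte sum. Of the 5 oligodendrocyte genes 2 were higher and 1 was lower, so the list did not move as a whole. The part of these markers in the results for Atp1b1 and Atp2a2 was not tested.

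Across 12 other ways of fitting or normalizing the data, Atp1b1 kept its direction in 12 and passed the threshold in 11, with log2 differences between 0.30 and 0.46. Atp2a2 kept its direction in 12 and passed in 8 (0.23 to 0.39), and Atp2b2 also kept its direction in 12 and passed in 8 (-0.36 to -0.13). When each of the 7 samples was left out in turn, Atp1b1 passed in 4 of 7 fits, Atp2a2 in 3 and Atp2b2 in 2, and all 3 kept their direction in every fit. After thinning all samples to the same total, the log2 differences of Atp1b1 and Atp2a2 were 0.43 and 0.37 (adjusted p = 0.00719 and 0.0128). Thinning used counts from which duplicates had already been removed, so it cannot undo an effect of depth on that step. Atp1b3, Atp2b1 and Atp2b3 passed in none of these fits, and Atp1b2 passed in the fit without temperature-responsive replicate 1.

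**Figure D5:**
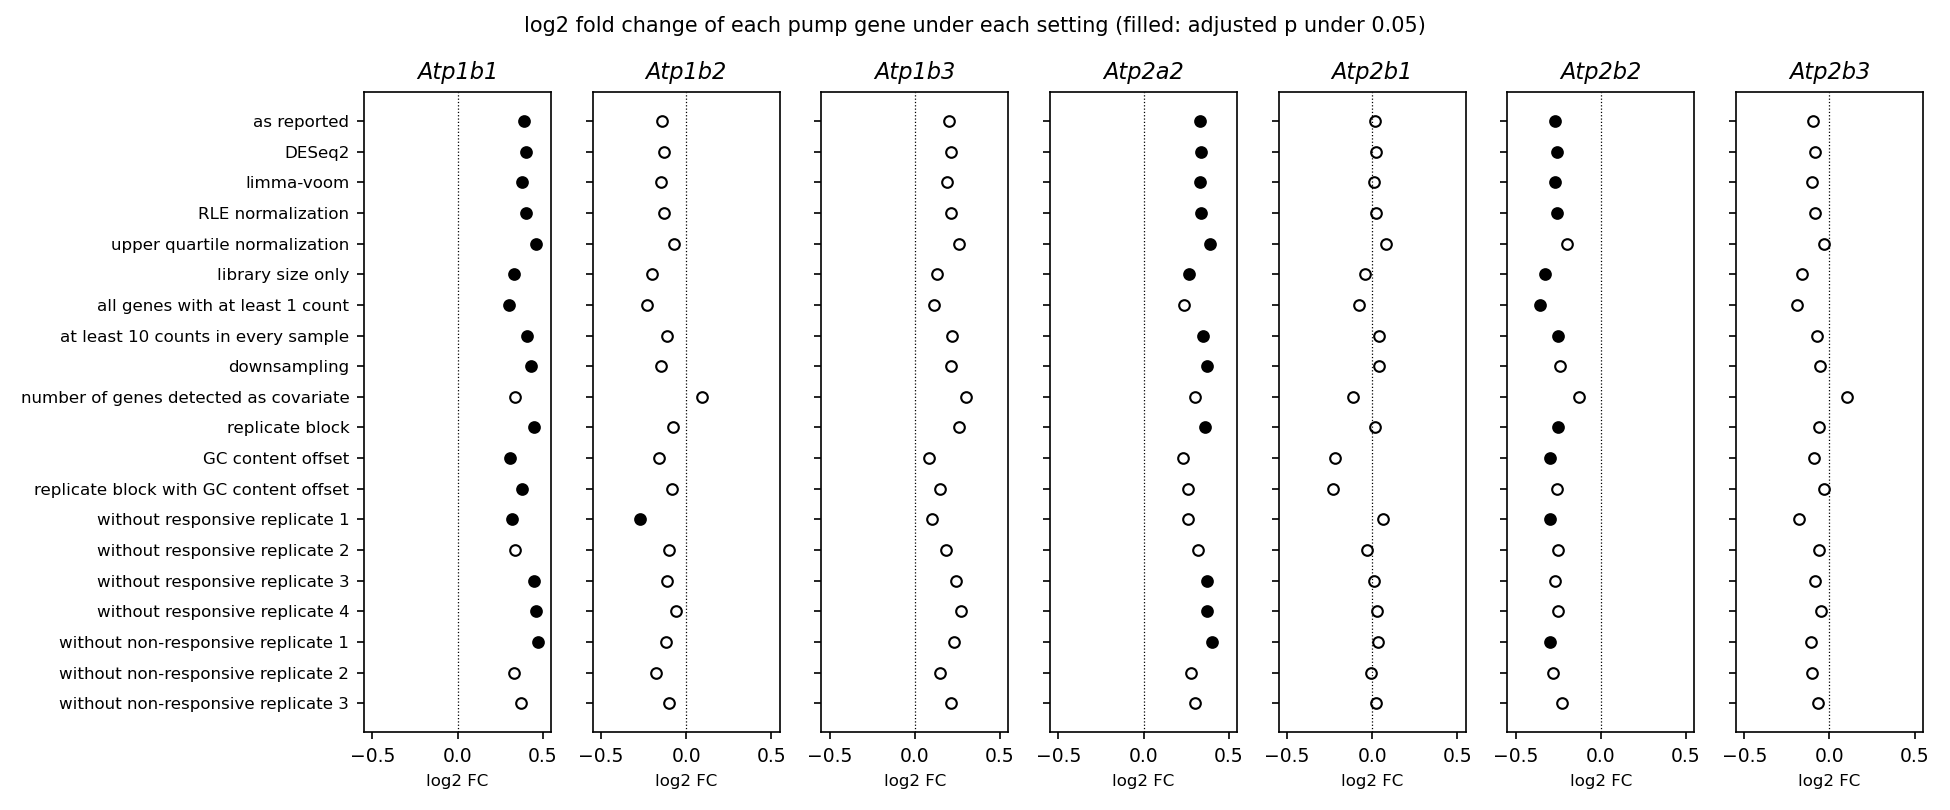
log2 difference of each pump gene (x axis) as reported, under 12 other settings and with each of the 7 samples left out (y axis), filled where the adjusted p was under 0.05. Atp1b1 stayed between 0.30 and 0.47 and Atp2b2 between -0.36 and -0.13, whereas Atp2b1 lay on both sides of 0.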

How the data were processed

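RNA from pooled neurons was amplified with the SMART-seq V4 kit, made into Nextera XT libraries and sequenced in a single lane. The authors aligned reads to mm10 with STAR 2.6.0, removed PCR duplicates with RmDup and deposited raw counts per gene symbol made with HTSeq 0.9.1 (STAR and HTSeq versions from the submitters' processing notes). Removal of duplicates without molecular identifiers can lower the counts of highly expressed genes. The annotation and the strand setting were not given in the sources used here.

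The test was edgeR 4.0.16 on genes that reached 10 counts in 3 or more samples (TMM, robust quasi-likelihood, two-sided, R 4.3.3). CPM used TMM-scaled totals of all genes. DESeq2 1.42.0, limma 3.58.1 (voom), other normalizations and filters, thinning, a covariate, the replicate number as a block, a GC offset (mgcv 1.9.3) and leaving out each sample were alternatives. Scripts were tested on simulated data. Gene positions, lengths and GC content were taken from GENCODE M21, in which 94.5% of symbols were found, and upstream windows from RefSeq.

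Samples were grouped by their labels. Pairs of samples of a group differed by more than sampling noise, with 2.02 to 4.98 for chi-square divided by its degrees of freedom. The pump genes and lists were chosen with earlier results of these data known. Named were all 7 pump genes, 11 genes of the lists whatever their values, the 10 listed genes with the smallest adjusted p, and the 3 genes most correlated with each pump gene. Some of these are not reported here.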

Additional observations from a re-analysis of the deposited data

How the results depend on the processing

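The number of genes detected did not overlap between the groups and with it as a covariate 1 gene was called of 14407 (2062 at an unadjusted p under 0.05), 0 of the 7 pump genes by edgeR (0 at an unadjusted p under 0.05) and 0 of the 42 other listed genes. With each sample left out in turn, between 2620 and 4583 genes were called against 4327, between 0 and 3 pump genes against 3, and between 10 and 21 listed genes against 19. No pump gene was called by edgeR without temperature-responsive replicate 2, non-responsive replicate 2 or non-responsive replicate 3, although 3 had an unadjusted p under 0.05 in each of these fits. Of all calls, 50.3% were higher in temperature-responsive samples, against 62.1% with upper quartile normalization, 33.3% with the GC offset and 36.5% with the GC offset and the replicate block. Spearman's correlation between log2 difference and GC content was -0.342 over genes. The cause of these shifts was not tested.

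The replicate numbers do not pair the samples, since deviations of same-numbered samples correlated at -0.128, -0.062 and 0.032. In a fit with this number as a block, 4124 genes, the same number of pump genes (3) and 14 listed genes were called. With the replicate block and the GC offset 1 pump gene was called, and the adjusted p was 0.0664 for Atp2a2 and 0.0681 for Atp2b2.

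Among 133 recomputed values of the 7 genes, 102 kept direction and side of the threshold, 21 lost the call, 1 gained it and 9 changed sign, none of the last in a gene that was called. Atp2b1 changed to -0.043 when scaled by library size alone, -0.078 with no filter beyond 1 count, -0.11 with the covariate, -0.22 with the GC offset, -0.23 with block and GC offset, and to -0.031 and -0.0088 without temperature-responsive or non-responsive replicate 2, in a range from -0.031 to 0.065 over the samples left out. With the covariate Atp1b2 changed to 0.091 and Atp2b3 to 0.10. No scaling moved the median of all genes by more than 0.092 on the log2 scale.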
